A study of Homo sapiens with 4 samples.

Results

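The 39 genes described here encode the protein core of the major spliceosome and the machinery that builds its small nuclear ribonucleoproteins (snRNPs). They were chosen by name: the 7 Sm proteins, the 3 U1 proteins, 11 U2 proteins with the SF3A and SF3B subunits, both U2AF subunits, 8 proteins of the U5 particle and of the U4/U6.U5 tri-snRNP, 2 factors of activation and disassembly, and 6 factors of snRNP assembly and the Cajal body. All 39 were found among the 25027 gene symbols or unmatched identifiers of the deposited tables, and all 39 passed the filter, a 4-library mean of 1 FPKM or more (fragments per kilobase of transcript, scaled to the mapped fragments of the library, a level per length), which 11631 genes passed. The rule that chose them used names and no measured value, but it was set with earlier results of these data known.

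An snRNP is a short uridine-rich RNA wrapped in a ring of Sm proteins, to which proteins specific to that particle are added. The SMN complex, made of SMN and the Gemin proteins, loads the Sm ring onto the RNA in the cytoplasm, and the particles mature in nuclear Cajal bodies, whose scaffold is coilin. U1 then marks the 5' end of an intron, U2AF and U2 mark its branch point and 3' end, and the tri-snRNP joins before the intron is cut out. SAF-A, encoded by HNRNPU and also called hnRNP U, is an abundant nuclear RNA-binding protein that has been tied to the maturation of U2 snRNP.

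The cells were RPE1, an established human line from retinal pigment epithelium. They received 10 nM of either a negative control siRNA or an siRNA against SAF-A by lipid transfection and were collected 24 h or 48 h later, so that each of the 2 times has a group with control siRNA and a group with SAF-A siRNA. Ribosomal RNA was removed from the total RNA, and libraries were sequenced as single reads of 50 nt. Each group was 1 library, so no test of a difference was possible, no p-value is given, and the error beside a value is the 95% interval deposited for that library, which does not cover variation between cultures. A single siRNA was used, and its effects on other RNAs cannot be told apart from those of lower SAF-A.

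The siRNA is shown because it is the agent behind both comparisons. It is given as its sense strand, written as the labels give it with U and T mixed, and the capitals mark the bases that would pair with bases 2 to 8 of the guide strand, the seed.
siRNA against SAF-A: ccugggaaucgtggcggATATAATa
HNRNPU holds the whole 25-base target. The longest stretch that any of the 39 spliced transcript sets shared with it was 5 to 11 bases, and other genes of at least 300 nt reached 14. The 7 bases ATATAAT that match the seed occur in SNRPB2, PRPF8 and SMN1, which is 7.69% of the 39 genes, against 22.3% of 11047 genes of at least 300 nt, whose median length was 2979 nt against 2183 nt. The log2 changes of these 3 genes at 24 h were 0.17, -0.24 and -0.20.

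HNRNPU, the targeted gene, stood in the SAF-A 24 h library at 11.4% of its control (10.4 against 91.2 FPKM) and in the SAF-A 48 h library at 10.9% (9.24 against 84.6 FPKM). The depth implied by the files was 28083822 mapped reads for the control and 30701282 for the SAF-A library of 24 h, 28586051 for the 48 h control, and 1216740 for the SAF-A library of 48 h, which stands apart. A transcript of 2 kb at 1 FPKM corresponds to 50.5 reads in the first of these and to 2.19 reads in the SAF-A 48 h library. The median gene of the 39 rested on about 1500, 1618, 1639 and 62.2 reads in that order, and in the SAF-A 48 h library 11 of them rested on under 20. RNAs shorter than 300 nt took 60.2%, 63.8%, 57.4% and 50.9% of the summed FPKM. Of 10 markers of retinal pigment epithelium, 2 (MITF and OTX2) were above 1 FPKM in any library and RPE65 was listed at 0 in all 4. Of 9 markers of epithelial and mesenchymal culture 5 were above 1 FPKM, among them vimentin at 2145, 1845, 1586 and 3312 FPKM and keratin 18 (KRT18) at 142, 124, 229 and 23.3 FPKM, each value in the order of the 24 h pair and then the 48 h pair, control first. None of 4 blood and 3 endothelial markers reached 1 FPKM, and of 3 neuronal markers 1 did, TUBB3 at 76.1, 67.5, 46.5 and 16.0 FPKM. The part of these differences in the results was not tested. In bulk RNA, fewer cells with a transcript and less of it per cell cannot be told apart.

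Levels within the group differed widely. SNRPB and SNRPD2, both subunits of the Sm ring, were the 2 highest genes in every library, with SNRPB at 243, 210, 245 and 347 FPKM and SNRPD2 at 193, 229, 217 and 243 FPKM in the order of the 24 h pair, control first, and then the 48 h pair, control first. Every list of 4 values follows that order. Their order changed at 24 h with SAF-A siRNA, where SNRPD2 was above SNRPB. SF3B5, a small SF3B subunit, ranked next in the first 3 libraries, and SF3B1, the large SF3B subunit that holds the branch point, took that rank in the SAF-A 48 h library. The lowest places were held by SF3A1, SF3A2 and SF3B4, all U2 proteins, between 3.74 and 6.08 FPKM in the 3 deep libraries. The median gene of the 39 was at 29.9, 29.3, 29.6 and 28.0 FPKM, against 10.2, 9.63, 10.5 and 8.66 FPKM for all genes tested. Subunits of one particle were thus not at equal RNA levels per length. Within SF3B, the controls at 24 h ranged from 4.19 FPKM for SF3B4 to 99.5 FPKM for SF3B5.

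**Figure D1:**
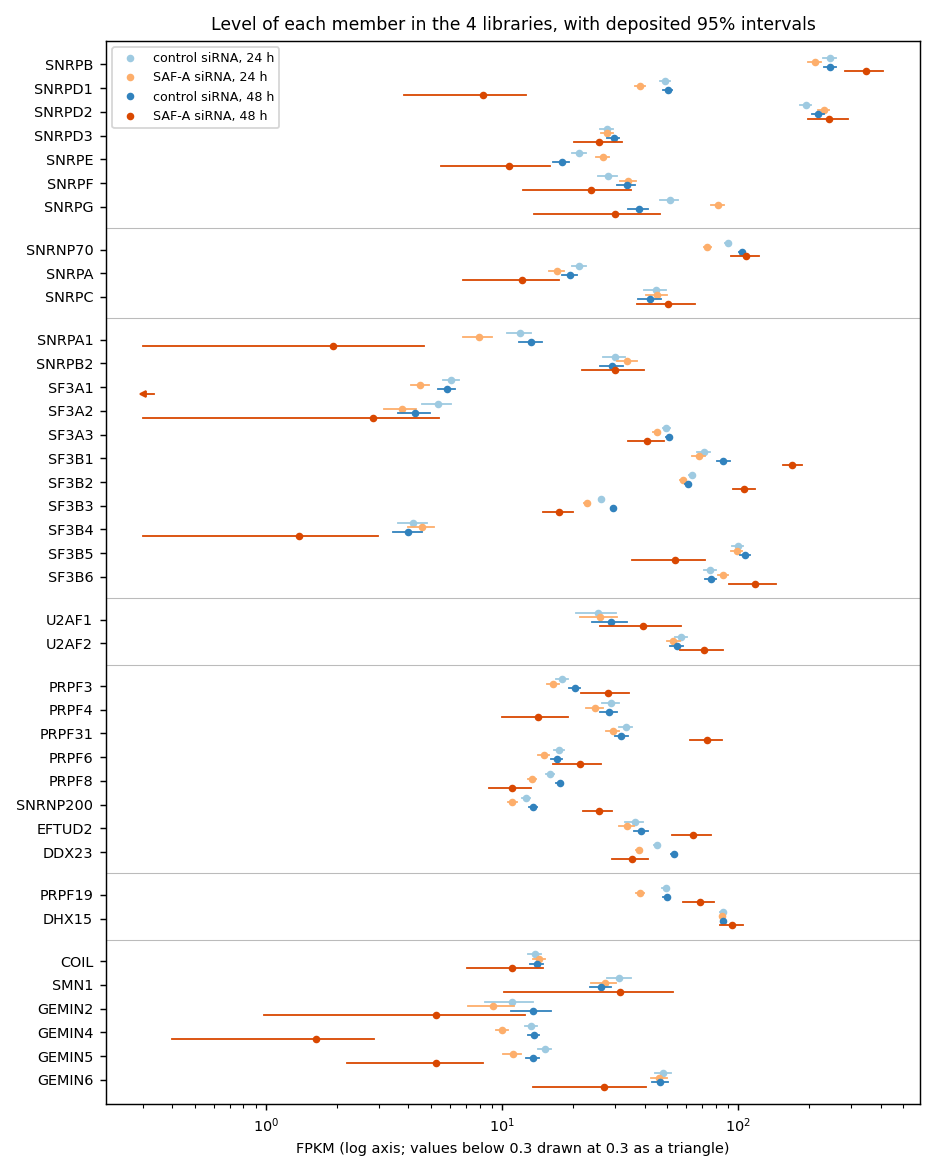
Level of each of the 39 genes in the 4 libraries, in FPKM on a log axis, with the deposited 95% intervals as horizontal bars and grey lines between roles. Points of the first 3 libraries lie close together, and the SAF-A 48 h points spread to both sides with wide intervals, from SF3A1 near 0 to SNRPB at 347 FPKM.

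At 24 h SAF-A siRNA was not accompanied by a 2-fold change of any of the 39 genes. Changes are differences of log2(FPKM + 1), a scale that understates the change of low genes, and 2-fold on that scale was the threshold. The counts were 0 of 39 higher and 0 of 39 lower, where 1.83% of all genes tested were higher and 1.25% were lower. The median change was -0.13 against -0.06 over all genes tested. The sign was positive for 11 and negative for 28 of the 39, where 36.5% of all genes tested were positive and 62.9% negative. Deposited intervals did not overlap for 23 of the 39, against 26.5% of all genes tested. The 39 genes also stand at a higher level than the median gene, as given above, and the part of level in that count was not tested.

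The Sm ring was the role with the highest median at 24 h, 0.25, with 5 of 7 genes above 0. SNRPG, one of the smallest ring proteins, was at 51.1 FPKM (interval 46.7 to 55.6) in the 24 h control, 81.5 FPKM (76.2 to 86.9) in the SAF-A library beside it, 37.7 FPKM in the 48 h control and 29.95 FPKM, about 14 reads, in its SAF-A partner. Its log2 change of 0.66 at 24 h was the highest of the 39, and the SAF-A 24 h library was the highest of the 4. The control libraries themselves differed for this gene, by -0.43 from 24 h to 48 h with intervals apart. SNRPE was at 21.2, 26.6, 17.8 and 10.7 FPKM and SNRPF at 27.9, 34.2, 33.6 and 23.7 FPKM, which gave 0.32 and 0.28 at 24 h. SNRPD2 changed by 0.25 at 24 h and SNRPD3 by 0.00. SNRPB and SNRPD1 were lower, by -0.21 and -0.34. Rescaling the libraries to TPM over all RNAs, which gives each library the same total and moved the median of all genes at 24 h from -0.06 to -0.22, left 4 of 7 Sm genes above 0 with a median of 0.07, and 4 of the 39 in all. Over the scalings tried, 4 to 14 of the 39 were above 0 at 24 h.

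The 8 genes of U5 and the tri-snRNP were all lower at 24 h, between -0.25 for DDX23 and -0.11 for EFTUD2, with a median of -0.19, and 0 of 8 were above 0 under each of the scalings tried. Intervals did not overlap for 5 of the 8, where they did not for 23 of the 39 and 26.5% of all genes tested. The 5 include PRPF8, the large scaffold of the catalytic centre, at 15.9 FPKM (15.3 to 16.5) with control and 13.4 FPKM (12.9 to 13.9) with SAF-A siRNA. DDX23, a helicase of the tri-snRNP, was at 45.2 and 37.9 FPKM. Among the other roles, the medians at 24 h were -0.29 for U1, -0.13 for U2, -0.04 for U2AF, -0.18 for activation and disassembly, and -0.22 for assembly. The gene lowest at 24 h was SNRPA1, a U2 protein, at 11.8 FPKM (10.4 to 13.2) with control and 7.92 FPKM (6.82 to 9.03) with SAF-A siRNA, a log2 change of -0.52. SF3A2 and GEMIN5 followed at -0.42 each.

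At 48 h the 39 genes spread from -2.77 to 1.19. One gene, PRPF31, was at least 2-fold higher, where 14.2% of all genes tested were higher, and 7 were at least 2-fold lower (SNRPD1, SNRPA1, SF3A1, SF3B4, GEMIN2, GEMIN4 and GEMIN5), where 20.1% were lower. The share of lower genes is near the background. Rescaled over RNAs of at least 300 nt, which moved the median of all genes at 48 h from -0.12 to -0.35, the counts were 0 higher and 10 lower, where 10.7% of all genes tested were higher and 29.1% lower, and SNRPD2, SNRNP70, SNRPB2 and DHX15 turned from above to below 0. The median was -0.30 against -0.12 over all genes tested, with 18 of 39 above 0 against 44.6%. The median was -0.077 (all genes 0) for a mean of at least 5 FPKM, and turned to 0.045 (all genes -0.074) over the 34 genes with at least 20 reads expected at the SAF-A 48 h depth, a setting added after the values were seen. Intervals did not overlap for 6 of the 7 lower genes, GEMIN2 being the exception, and for PRPF31, where 16.6% of all genes tested were lower and 12.5% higher by that stricter rule. At any fold, intervals did not overlap for 24 of the 39, against 48.5% of all genes tested. The part of level in that count was not tested. Every value at 48 h rests on the shallow SAF-A library, and without it the comparison that remains is the one at 24 h, with 0 of 39 genes past 2-fold.

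SNRPD1, the Sm D1 protein (chr18:19192260-19210208 on hg19), was the Sm gene past the threshold. It was at 49.0, 38.5, 50.2 and 8.24 FPKM, and the last value (3.84 to 12.6) came from about 14 reads, where about 86 would be expected at the control level. The SAF-A 48 h library was 6.09-fold below its control, at 16.4% of it with a counting interval of 8.93% to 27.5%. The SAF-A libraries were the lower at both times, with intervals apart. The other 6 Sm genes lay between -0.68 for SNRPE and 0.50 for SNRPB, and SNRPD2, SNRPD3, SNRPF and SNRPG had overlapping intervals. The median of the ring at 48 h was -0.32.

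For U1, which pairs with the 5' splice site, SNRNP70, the 70K protein, was at 90.3, 73.8, 104 and 108 FPKM, with a change of 0.05 at 48 h that became -0.18 when libraries were rescaled over RNAs of at least 300 nt. SNRPA, which binds a loop of U1 RNA, was at 21.1, 17.0, 19.3 and 12.1 FPKM, lower in both SAF-A libraries than in their controls with intervals apart, by -0.29 and -0.63. SNRPC, the smallest of the U1 proteins, was at 44.7, 45.3, 42.2 and 50.3 FPKM, with overlapping intervals at both times. No U1 gene passed 2-fold.

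The 11 U2 genes held 3 of the lower genes and also SF3B1, the largest increase short of 2-fold. SNRPA1 (chr15:101821715-101835460) was at 11.8, 7.92, 13.3 and 1.92 FPKM, so it was the lower in both SAF-A libraries. Its last value came from about 2 reads where 14 would be expected, or 14.5% of the control with a counting interval of 1.74% to 52.6%. SF3B4 was at 4.19, 4.56, 3.99 and 1.38 FPKM, the last from about 3 reads, or 34.5% with a counting interval of 7.07% to 102%. That interval includes no change, although the deposited intervals did not overlap. SF3A2 was at 5.32, 3.74, 4.28 and 2.84 FPKM, the last from about 5 reads, a change of -0.46 with overlapping intervals.

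SF3A1, the largest SF3A subunit (chr22:30727977-30752913), was at 6.08, 4.50 and 5.81 FPKM in the first 3 libraries and was listed at 0 reads in the SAF-A 48 h library. A second transcript accession at the same place had no symbol in the naming table. It shares 14 of its 16 exons with SF3A1, was near 0 in the first 3 libraries and was at 1.57 FPKM, about 9 reads, in the SAF-A 48 h library. With both summed, SF3A1 was at 6.08, 4.50, 5.81 and 1.57 FPKM, 3.71-fold lower at 48 h with a log2 change of -1.41 in place of -2.77, and still past 2-fold. Reads at this place were thus given to another accession in the SAF-A 48 h library than in the first 3. The count of 7 lower genes and the median of -0.30 stayed the same with the sum.

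SF3B1 (chr2:198256698-198299771) was at 71.2, 68.0, 86.4 and 168 FPKM, the last (154 to 186) from about 837 reads, the largest number of any of the 39 in that library. Its change was -0.07 at 24 h and 0.95 at 48 h, 1.95-fold and just under the threshold. SF3B2 was at 63.6, 58.2, 61.04 and 106 FPKM (0.79 at 48 h) and SF3B6, the p14 protein at the branch point, at 76.0, 86.2, 76.2 and 117 FPKM (0.62). Each of these 3 had its highest value in the SAF-A 48 h library, with intervals apart from the control. SF3B3 was at 26.3, 22.8, 29.4 and 17.4 FPKM (-0.73) and SF3B5 at 99.5, 98.2, 107 and 54.0 FPKM (-0.97), each with its lowest value in the SAF-A 48 h library. Of the 6 SF3B genes, 3 were higher and 3 lower at 48 h, each with intervals apart. At any fold, 48.5% of all genes tested had intervals apart at 48 h. SF3B4, among the lower genes, rested on about 3 reads, with a counting interval that includes no change. SF3A3 changed by -0.30 and SNRPB2, the partner of SNRPA1 on U2 RNA, by 0.04.

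Both U2AF genes, whose products read the polypyrimidine tract and the AG at the 3' end of the intron, were higher at 48 h with overlapping intervals. U2AF1 was at 25.5, 26.0, 28.8 and 39.5 FPKM and U2AF2 at 57.2, 53.1, 54.8 and 71.3 FPKM. Their changes at 48 h were 0.44 and 0.37.

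U5 and the tri-snRNP held 5 genes above and 3 below 0 at 48 h, with a median of 0.38. PRPF31, a U4/U6 protein (chr19:54618790-54635150), was at 33.4, 29.3, 31.9 and 73.9 FPKM, the last (62.3 to 85.6) from about 178 reads where 77 would be expected. It was 2.32-fold higher at 48 h and the SAF-A 48 h library was the highest of the 4. Its log2 change of 1.19 was the highest of the 39, and fell below 2-fold when libraries were rescaled over RNAs of at least 300 nt. PRPF31 shares 266 nt of exons with TFPT on the other strand, and no source used here states whether reads were assigned by strand. TFPT was at 3.83, 3.78, 5.13 and 0 FPKM. SNRNP200, the U5 helicase that unwinds U4/U6, was at 12.6, 11.0, 13.4 and 25.5 FPKM (0.88), EFTUD2, a U5 GTPase, at 36.3, 33.6, 38.7 and 63.9 FPKM (0.71), and PRPF3 at 17.9, 16.5, 20.3 and 28.0 FPKM (0.45), each with intervals apart. PRPF6 changed by 0.31 with overlapping intervals. On the other side, PRPF4, which binds PRPF3 in the particle, was at 28.9, 24.6, 28.3 and 14.2 FPKM, 1.99-fold lower, and PRPF8 and DDX23 changed by -0.62 and -0.58, all with intervals apart. All 8 were lower at 24 h, and 5 of the 8 were higher at 48 h.

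PRPF19, a ubiquitin ligase that acts as the spliceosome is activated, was at 49.2, 38.4, 49.7 and 68.5 FPKM, the lowest of the 4 libraries at 24 h with SAF-A siRNA and the highest at 48 h with SAF-A siRNA, with intervals apart at both times. DHX15, a helicase that takes spent spliceosomes apart, was at 85.9, 85.5, 86.4 and 93.9 FPKM, with overlapping intervals at both times. Its 3 deep libraries lay between 85.5 and 86.4 FPKM.

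The assembly genes had the lowest median at 48 h, -0.99, with 5 of 6 below 0. GEMIN4 (chr17:647661-655501) was at 13.2, 9.98, 13.6 and 1.63 FPKM, the last (0.397 to 2.86) from about 7 reads where 58 would be expected. That is 8.34-fold below its control, at 12.0% with a counting interval of 4.81% to 24.7%. GEMIN5, the subunit that first binds the small nuclear RNA (chr5:154266976-154317776), was at 15.1, 11.0, 13.4 and 5.22 FPKM, 2.58-fold lower from about 33 reads. GEMIN4 and GEMIN5 were below their controls with intervals apart at both times, by -0.38 and -0.42 at 24 h. GEMIN2 was at 11.0, 9.14, 13.5 and 5.25 FPKM, 2.57-fold lower at 48 h from about 7 reads with overlapping intervals. GEMIN6 was at 47.9, 46.1, 46.5 and 26.9 FPKM, 1.73-fold lower from about 16 reads. COIL, coilin, was at 13.7, 14.3, 13.98 and 11.0 FPKM with overlapping intervals throughout.

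SMN1 was at 31.3, 27.1, 26.2 and 31.4 FPKM, with changes of -0.20 and 0.25 and overlapping intervals. Its accessions have rows at the places of both near-identical copies, SMN1 and SMN2, so reads can be split between them. With SMN1 and SMN2 summed the level was 32.5, 30.3, 29.2 and 32.9 FPKM, and the changes were -0.10 and 0.16. In the SAF-A 48 h library SMN1 was thus above its control where the 4 Gemin genes were below theirs, by -2.47 to -0.77. The difference between them was not tested.

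**Figure D2:**
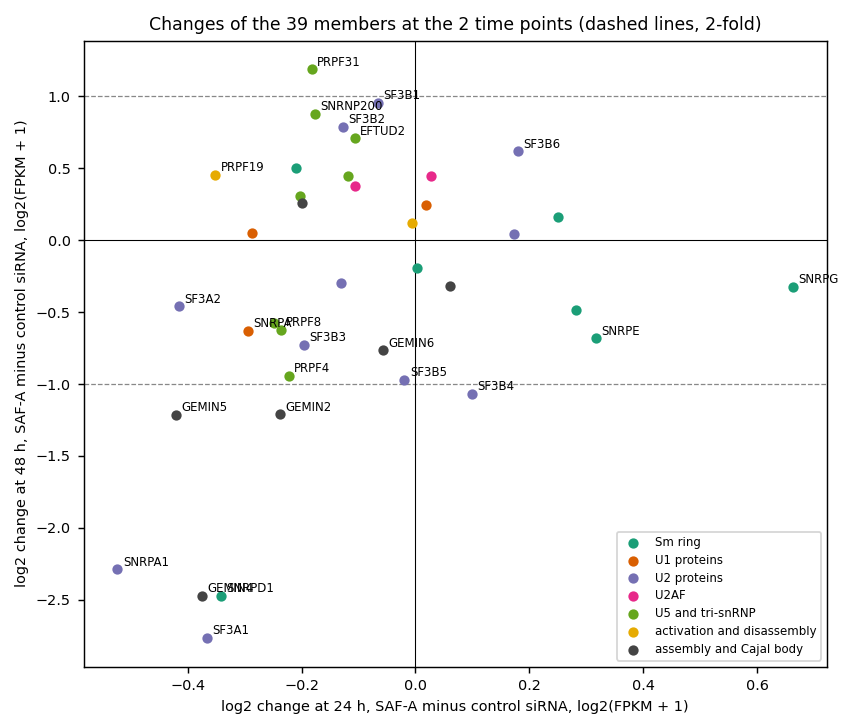
Log2 change of each of the 39 genes with SAF-A against control siRNA at 24 h (horizontal axis) and at 48 h (vertical axis), coloured by role, with dashed lines at 2-fold. The 24 h changes lie between -0.52 and 0.66, and the upper left part holds 13 genes that were lower at 24 h and higher at 48 h, PRPF31, SNRNP200, SF3B1, SF3B2 and EFTUD2 among them.

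The 24 h and 48 h comparisons share no library. Of the 39 genes, 20 (51.3%) had the same sign in both. Over all genes tested the share was 61.1%, which counts a change of exactly 0 with the lower ones. Of those 11631 genes, 2453 were higher at both times and 4518 lower at both. Among the 39, 5 were higher at both times, 15 lower at both, 6 higher then lower and 13 lower then higher. Across genes, Spearman's rho of the 2 changes was 0.322 for the 39 and 0.312 for all genes tested, as a description, since genes of one library are not independent. The genes that were past 2-fold and lower at 48 h with intervals apart were below their control at 24 h as well, except SF3B4 at 0.10. Of all genes tested, 4518 were lower at both times and 1717 higher then lower, and 62.9% were below 0 at 24 h.

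Time alone moved the 39 genes little with control siRNA. From 24 h to 48 h 0 of 39 were past 2-fold, where 1.79% of all genes tested were higher and 1.36% lower, and the median was 0.01. With SAF-A siRNA 3 were higher at 48 h than at 24 h (SF3B1, PRPF31 and SNRNP200) and 7 lower, where 15.1% and 17.8% of all genes tested were higher and lower, and the median was -0.13. Rescaled to TPM the counts were 6 and 7, where 20.6% and 13.9% of all genes tested were higher and lower, and rescaled over RNAs of at least 300 nt they were 2 and 9, where 11.9% and 25.6% were. This last comparison also rests on the shallow library and shares libraries with those between siRNAs.

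Transcript shares could be compared for 13 of the 39 genes, those with more than 1 transcript that reached 5 FPKM in each library compared. The measure is the summed difference in share divided by 2, and 0.3 or more was counted as a shift. At 24 h 1 of 13 genes was shifted, GEMIN2, where 9.29% of genes were. At 48 h 5 of 13 were shifted (SNRPC, SNRPB2, U2AF1, PRPF4 and SMN1), where 38.6% of genes were, and between the control libraries 0 of 13, where 9.74% were. The share of shifted genes at 48 h is near the background, and the shares in the SAF-A 48 h library rest on 36 to 62 reads a gene. Transcripts are named by their RefSeq identifiers. PRPF4, GEMIN2 and GEMIN5 are named here after their values were seen.

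U2AF1 has a pair of exons of 67 nt that exclude each other in 2 of its 3 transcripts, NM_006758 and NM_001025203, while the remaining transcript holds both. The exons are shown since the first of these transcripts took nearly all of the gene in the SAF-A 48 h library. They are given 5' to 3' on the transcribed strand of GRCh37, at chr21:44520563-44520629 and chr21:44521476-44521542, with capitals where the bases differ.
exon of NM_006758: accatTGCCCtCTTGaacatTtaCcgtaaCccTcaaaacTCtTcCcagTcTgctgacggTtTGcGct
exon of NM_001025203: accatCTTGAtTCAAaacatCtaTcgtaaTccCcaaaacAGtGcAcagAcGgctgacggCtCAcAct
The exons agree at 44 of 67 bases. NM_006758 had 41.6%, 44.05%, 64.9% and 99.99% of U2AF1 in the 4 libraries. The control libraries differed from each other by more than the 24 h pair did, and the last value came from about 36 reads.

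PRPF4 and GEMIN5 each have transcripts that differ by 3 nt at the start of an exon, where tandem AG ends of the intron lie next to each other. They are shown since reads of 50 nt can tell these transcripts apart only where they cross that junction, and the shares are estimates of the deposited model. The capitals are the 3 bases that the longer transcript includes, with 20 bases on either side, on GRCh37 (chr9:116038805-116038847 and chr5:154311115-154311157).
PRPF4: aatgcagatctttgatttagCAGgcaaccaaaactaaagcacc
GEMIN5: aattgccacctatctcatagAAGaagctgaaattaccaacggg
The shorter PRPF4 transcript had 71.3%, 81.0% and 83.5% of the gene in the first 3 libraries and 0.0117% in the SAF-A 48 h library, from about 47 reads in all. The shorter GEMIN5 transcript was near 0 in both control libraries and at 21.5% and 25.3% in the SAF-A libraries at 24 h and 48 h. As shares of the estimated reads over the whole transcript, these equal about 379 of 1763 and about 8 of 33. They are not counts of reads that cross the junction, which were not available. GEMIN5 did not reach the shift of 0.3 in either comparison, at 0.215 and 0.252.

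SNRPC and SNRPB2 had 2 transcripts each in similar amounts in the deep libraries. The noncoding SNRPC transcript NR_029472, 43 nt shorter, had 53.3%, 64.6% and 46.0% there, and SNRPB2 NM_198220, 100 nt shorter, had 50.4%, 70.1% and 40.7%. Both were near 0 in the SAF-A 48 h library, where the other transcript took all of about 62 and 54 reads. At 24 h both had a higher share with SAF-A siRNA than in either control library, by less than the threshold for a shift. SMN1 NM_022874, which lacks 96 nt, had 5.19%, 5.93%, 0% and 48.0%, the last an estimated share equal to about 24 reads. GEMIN2 NM_003616 had 46.0%, 2.86%, 19.5% and 0%, so the control libraries also differed.

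**Figure D3:**
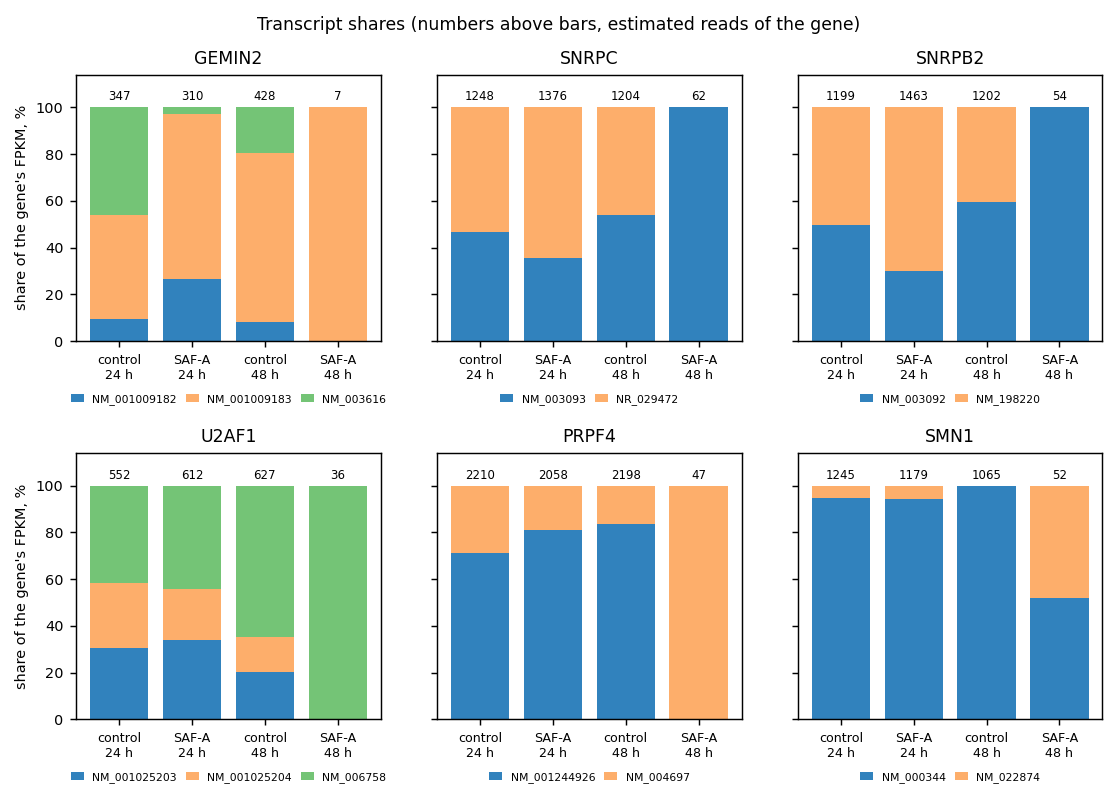
Share of each transcript in the FPKM of 6 genes in the 4 libraries, in percent, with the estimated reads of the gene above each bar. In the SAF-A 48 h library 5 of the 6 genes are given almost wholly to 1 transcript, on 7 to 62 reads.

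Promoters were looked up since these genes act in one pathway. RefSeq promoters of GRCh38.p14, 250 bases before to 50 after the start, were matched by symbol for 35 of the 39 genes, PRPF3, SF3B3, SMN1 and SNRPD1 being the others. The letters CCGGAAG, a form of the ETS family site, on either strand, occurred in 17 of 35 (48.6%), against 21.4% of the 8834 promoters of genes tested and 10.7% of all 27305. The other letters searched on both strands were GGGCGG (SP1) in 23 of 35 against 71.3% of the promoters of genes tested, GATGGCG (YY1) in 4 against 8.22%, GCGCATG (NRF1) in 4 against 8.35%, and CACGTG (E-box) in 2 against 10.5%. Matches of different letters were counted separately and may overlap. The 17 genes with the ETS letters had a median change at 48 h of 0.04 and ran from -2.77 to 0.88, and the 18 without had a median of -0.40 and ran from -1.22 to 1.19. At 24 h the medians were -0.13 and -0.14. A match of letters is a description and not a bound site.

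The following 250 bases before the start are given 5' to 3' on the gene's strand. They are from genes with the ETS letters, picked by their change as 2 higher and 2 lower at 48 h. Picked in that way, they cannot show whether the letters go with the change, which was not tested. Capitals mark the ETS letters or, for SNRPA1, their reverse complement. Positions are on GRCh38.p14: chr20:2470790-2471039, chr2:96305547-96305796, chr17:752265-752514 and chr15:101295249-101295498, all on the minus strand.
SNRPB: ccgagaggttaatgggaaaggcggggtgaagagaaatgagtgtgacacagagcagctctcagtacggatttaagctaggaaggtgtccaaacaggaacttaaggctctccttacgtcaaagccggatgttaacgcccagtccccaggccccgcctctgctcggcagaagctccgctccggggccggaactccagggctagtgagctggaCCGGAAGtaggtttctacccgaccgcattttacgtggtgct
SNRNP200: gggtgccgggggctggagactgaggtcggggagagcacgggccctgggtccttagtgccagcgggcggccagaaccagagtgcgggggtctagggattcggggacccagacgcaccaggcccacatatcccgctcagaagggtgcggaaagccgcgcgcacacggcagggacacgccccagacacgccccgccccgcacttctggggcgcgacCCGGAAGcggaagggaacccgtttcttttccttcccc
GEMIN4: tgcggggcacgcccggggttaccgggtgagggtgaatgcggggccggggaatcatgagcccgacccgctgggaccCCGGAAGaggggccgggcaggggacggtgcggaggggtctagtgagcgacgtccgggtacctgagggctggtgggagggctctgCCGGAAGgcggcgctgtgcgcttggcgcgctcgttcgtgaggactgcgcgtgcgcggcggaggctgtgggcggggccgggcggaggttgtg
SNRPA1: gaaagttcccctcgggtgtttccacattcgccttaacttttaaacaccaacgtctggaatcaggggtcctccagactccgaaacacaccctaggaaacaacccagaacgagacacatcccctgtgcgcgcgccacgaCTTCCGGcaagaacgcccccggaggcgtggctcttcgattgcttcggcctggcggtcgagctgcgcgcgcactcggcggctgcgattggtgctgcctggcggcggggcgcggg

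The promoters of SNRPB (0.50 at 48 h) and SNRNP200 (0.88) hold 1 match each, GEMIN4 (-2.47) holds 2 and SNRPA1 (-2.29) holds 1.

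Other genes of the pathway were taken from lists of names, which were set with earlier results of these data known. At 24 h the 1 gene past 2-fold in these lists was INTS14, an Integrator subunit, at -1.90. INTS14 also differed by -1.99 between the control libraries, from 24 h to 48 h, with intervals apart. The list medians ran from -0.18 to -0.01. At 48 h, of 21 other assembly genes 1 was higher and 3 lower, with a median of -0.31. They ran from TOE1 at -1.61 to SNUPN, the import adaptor of snRNPs, at 1.04. The deposited intervals of SNUPN overlapped. Of 15 genes of the LSM ring, which holds U6, and of the tri-snRNP 1 was higher and 1 lower (median -0.01, from LSM6 at -3.67 to SNRNP27 at 1.54). Of 31 later spliceosome factors 4 were higher and 2 lower (median 0.22, from PRPF38A at -1.97 to CWC15 at 1.49). Of 8 proteins of the minor spliceosome 2 were higher and 1 lower (median -0.10, from PDCD7 at -1.71 to ZMAT5 at 1.21). Of 22 genes of snRNA transcription and 3' processing 1 was higher and 6 lower (median -0.05, from INTS5 at -1.80 to INTS14 at 2.89). Among the 6 lower genes of that last list 5 had intervals apart. The counts at 48 h are read against 14.2% higher and 20.1% lower over all genes tested, and rest on the shallow SAF-A library.

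For comparison, 34 regulators of the hnRNP and SR families had 1 gene higher and 11 lower at 48 h with a median of -0.74, from HNRNPA1 at -2.22 to HNRNPH2 at 1.56. The 31 proteasome subunits, genes of another large complex, had 15 higher and 1 lower with a median of 0.99. The median of the 39 genes, -0.30, lay between these, and nearer to that of all genes tested.

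**Figure D4:**
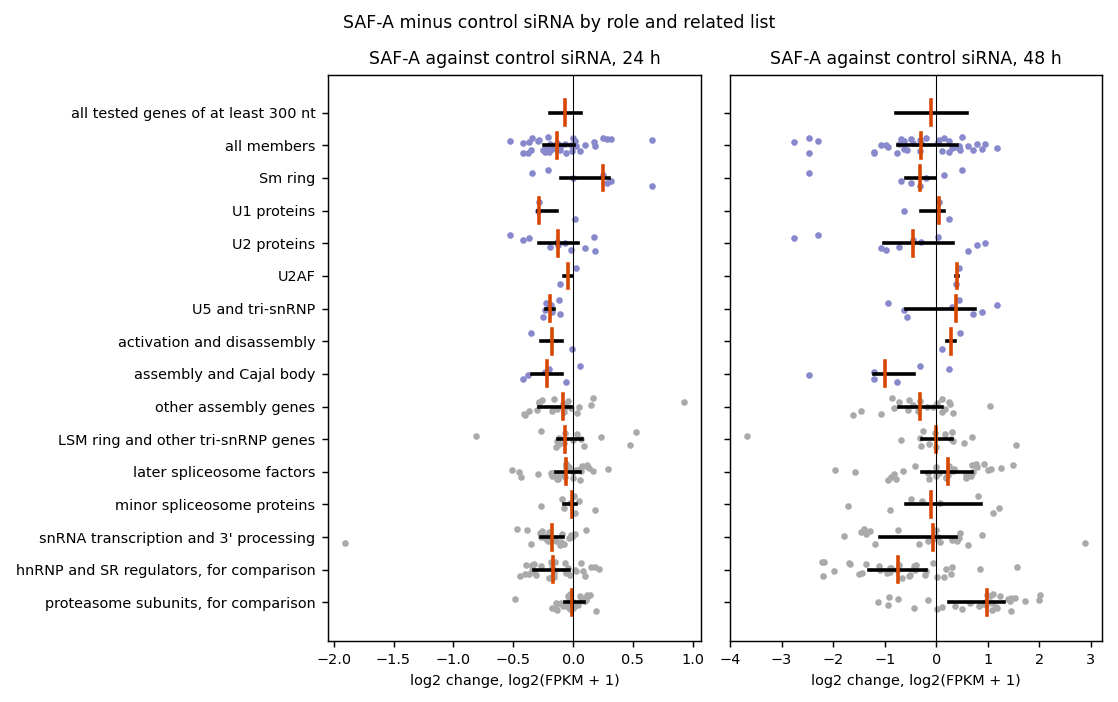
Log2 change with SAF-A against control siRNA at 24 h (left) and 48 h (right) for the 39 genes by role and for the related lists, one dot a gene, with the median as an orange line and the interquartile range as a black bar. The 2 panels have different horizontal scales, and the top row summarises all genes tested of at least 300 nt.

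The 24 h changes of the 39 genes went with transcript length and base composition. Across the 39, Spearman's rho of the 24 h change was -0.377 with spliced length and -0.417 with GC content, against -0.10 and -0.176 across all genes tested of at least 300 nt. The points share the same 2 libraries and no p is given. Among the 6 genes of 300 to 1000 nt (SNRPD2, SNRPF, SNRPG, SF3B5, SF3B6 and GEMIN6) 4 were above 0 with a median of 0.22, where 65.9% of 730 genes in that length range were above 0 with a median of 0.09. Among the 13 of 1000 to 2000 nt 5 were above 0, with a median of -0.21 against -0.05 for 2270 genes. Among the 13 of 2000 to 4000 nt 2 were above 0, with a median of -0.13 against -0.08 for 4412 genes. Among the 7 of at least 4000 nt 0 were above 0, with a median of -0.20 against -0.08 for 3641 genes. Above 1000 nt the medians of the members thus did not fall steadily with length. The median length was 1153 nt for the Sm genes and 3184 nt for the U5 and tri-snRNP genes. The part of length in the difference between these roles was not tested. At 48 h rho with length was 0.06. The 48 h change went with level. Its rho with FPKM in the control 24 h library, which is outside that comparison, was 0.447. Across all genes tested of at least 300 nt it was 0.07. For the 24 h change, rho with FPKM in the control 48 h library was 0.313, against -0.016 across those genes.

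**Figure D5:**
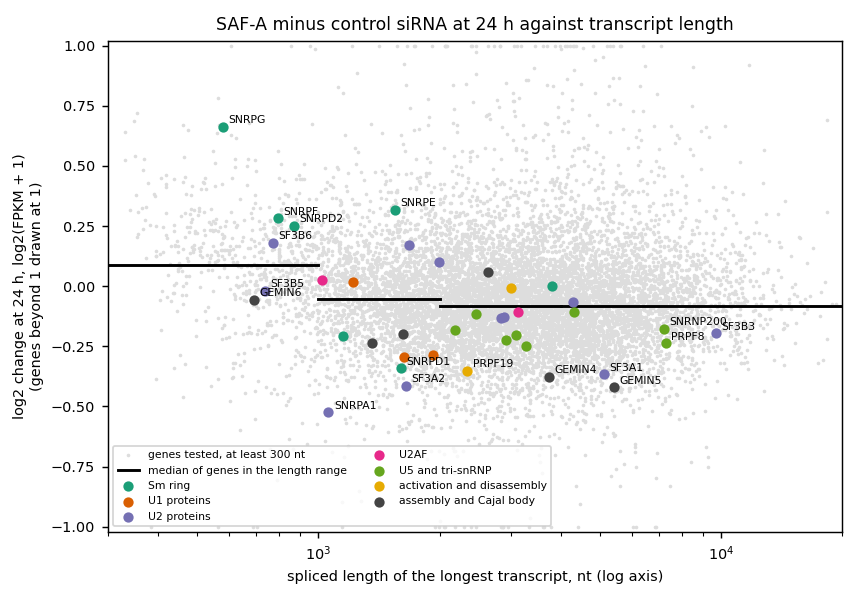
Log2 change with SAF-A against control siRNA at 24 h against spliced length in nt (log axis), with the 39 genes coloured by role, all genes tested of at least 300 nt in grey and their medians by length range as black lines. SNRPG, the shortest of the 39, is the highest, and the 7 genes of at least 4000 nt lie below 0.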

How the data were processed

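RNA-seq of 4 RPE1 libraries, 1 a group, was analysed. The authors deposited gene and transcript tables of FPKM values with 95% bounds and coverage, in which each RefSeq transcript is its own gene, per the file headers. The submitters' processing notes name TopHat2 2.0.10, Bowtie2 2.1.0, Cufflinks 2.2.1, Cuffdiff and hg19. Strand use is not given in the sources used here. Exon positions and the other columns used were read from the deposited transcript files. Of 522 exons of the 39 genes, 87.9% have identical ends in GENCODE mapped to GRCh37.

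The 47338 rows a table were joined to symbols (97.1% matched) through a RefSeq table of GRCh38.p14, used for names alone. FPKM and bounds were summed per symbol, so summed bounds are wider than an interval of the sum. Reads were estimated from coverage, effective length and FPKM, with fragments of 200 nt (SD 80) assumed. Changes are differences of log2(FPKM + 1), for genes whose 4-library mean reached 1 FPKM, with a 2-fold threshold. Counting intervals (95%) are exact binomial intervals for the share of SAF-A reads among the reads of both 48 h libraries, rescaled for depth. They cover counting error only, and are given for genes with 1 transcript. Named genes were every member by role, with values in each library for those past 2-fold with intervals apart, the highest and lowest of each role and the extremes. Related lists are given by counts, median and extremes. The members, lists and alternatives were chosen with earlier results of these data known. Scripts used Python 3.11.15, numpy 2.4.6, pandas 2.3.3 and scipy 1.17.1 and were tested on simulated data. The alternatives changed the pseudocount, filter, scaling, centring, threshold and transcript minimum.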

Additional observations from a re-analysis of the deposited data

Results flagged for a closer look

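In 6 of the 39 genes the change with SAF-A siRNA had opposite signs at 24 h and 48 h, with the deposited intervals of both pairs apart. That is 15.4% of the 39, where 404 of 11631 genes tested (3.47%) met the same condition. The 39 genes stand at a higher level than the median gene, and the part of level in this share was not tested. The difference between the times was not tested, and the 48 h value of each rests on the shallow library. In 5 the value was lower and then higher, and the 48 h change exceeded the 24 h change by 0.71 for SNRPB, 0.91 for SF3B2, 1.37 for PRPF31, 1.06 for SNRNP200 and 0.81 for PRPF19 on the log2 scale. For SNRPE it was higher and then lower, and the 48 h change minus the 24 h change was -1.0002. The SNRPE value at 48 h came from about 18 reads.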

How the results depend on the processing

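No paired analysis was possible because each group is 1 library. Leaving out a library leaves no comparison at that time. Of the values over all 39 genes, 113 stayed close under an alternative (a median within 0.1, a count within 1.5 times), 15 moved and 4 reversed. Of those of single genes 287 stayed within the range their deposited intervals allow and 29 moved, and 14 small changes switched sign under a scaling. A mean of at least 5 FPKM gave a 48 h median of -0.077. Rescaling to TPM gave a 24 h median of -0.31, and 6 higher genes with a median of 0.093, reversed, for SAF-A siRNA over time. Rescaling over RNAs of at least 300 nt gave 0 higher genes and a median of -0.54 at 48 h (all genes -0.35, with SF3B5, PRPF4 and GEMIN6 added to the lower genes), a control median over time of -0.0064, reversed, and a SAF-A median over time of -0.34. Centring gave a control median over time of -0.017, reversed. A 1.5-fold threshold gave 1 higher gene at 24 h (3.53% of all genes tested), 6 higher and 14 lower at 48 h, and 9 higher and 12 lower for SAF-A siRNA over time, where 24.7% of all genes tested were higher and 32.5% lower at 48 h, and 26.6% and 29.5% over time. Asking for at least 20 reads expected at the SAF-A 48 h depth, chosen after seeing the data, gave 4 lower of 34 genes (18.9% of all genes) and a median of 0.045, reversed, at 48 h (all genes -0.074). For transcript shares, 20 FPKM gave 0 of 11 shifted genes (4.31% of all) and a difference of 0.5 gave 0 of 13 (3.10% of all) at 24 h, and a difference of 0.5 gave 1 of 13 (21.8% of all) at 48 h. For these the cause was not tested. Depth limits the 48 h comparison, in which 6 of the 39 genes rest on under 10 reads.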
